A study of Mus musculus with 18 samples.

Results

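The accessible chromatin around 6 genes of the STAT family (Stat2, Stat3, Stat4, Stat5a, Stat5b and Stat6) was described in primary mouse macrophages. For each gene, all entries of the 3 lists deposited with the study were taken that lay in the gene body or within 50 kb of its most upstream start site (GENCODE M21 annotation, mm10 genome build). The 6 members are part of 21938 protein-coding genes. Their loci, meaning the gene body together with the 50 kb window, held 80 of the 82391 reference peaks, 85 of the 84660 summits (the points of highest signal within a peak) and 49 of the 59617 extended regions, which are peaks widened on both sides and joined where they touched. Of the 49 extended regions, 48 had a summit within a locus and 1 reached into the Stat6 window with its edge.

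Open chromatin was mapped by ATAC-seq, which marks DNA that a transposase can reach. The cells were bone marrow-derived macrophages (BMDMs) grown from wild type bone marrow. The bone marrow came from male C57/BL6 mice aged 6 to 8 weeks. Every culture first received vehicle (DMSO) for 1 h. The untreated group got nothing further, 4 groups received LPS, a component of bacterial walls, for 30 min, 1 h, 2 h or 4 h, and 4 groups received the cytokine IL-4 for the same times, both at 10 ng/mL. Each of the 9 groups had 2 libraries (18 in all). The 3 lists were pooled by the authors across all libraries, so a summit can stem from resting, LPS-treated or IL-4-treated cells, and these cannot be told apart. The depth of the libraries is unknown, there are no replicate values, and no effect of a stimulus or time could be measured. The values below therefore describe the pooled catalog, with no test.

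STAT proteins are transcription factors that wait in the cytoplasm until a cytokine receptor and its JAK kinases phosphorylate them. They then pair, enter the nucleus and bind short palindromes with TTC and GAA at their ends. STAT6 responds to IL-4 and drives alternative macrophage activation, STAT2 pairs with IRF9 in the type I interferon response that follows LPS, STAT3 carries IL-6 and IL-10 signals, STAT5A and STAT5B respond to GM-CSF and related cytokines, and STAT4 is best known for IL-12 signaling in T and NK cells.

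To show what the open chromatin of the family consists of, sequences at its summits are printed first. All are from the plus strand of mm10, 5′ to 3′. The first set covers the best scored start site summit of 4 members, limited to the bases outside untranslated exons. For Stat5b this summit lay at an internal coding start, 28133 bp downstream of the most upstream start. The score is the authors' own value for each summit, its scale is not stated, and it was used here for ranks within the list only. Capitals would mark matches to any of 8 searched motifs, of which none fell in these stretches.
Stat6, score 1556, chr10:127642870-127642985: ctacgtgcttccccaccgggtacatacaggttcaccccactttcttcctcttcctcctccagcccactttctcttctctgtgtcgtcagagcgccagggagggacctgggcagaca
Stat3, score 2153, chr11:100939541-100939688: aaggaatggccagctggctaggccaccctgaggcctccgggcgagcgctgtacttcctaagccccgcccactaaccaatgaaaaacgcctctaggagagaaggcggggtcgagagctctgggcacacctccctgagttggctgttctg
Stat5a, score 1657, chr11:100860272-100860344: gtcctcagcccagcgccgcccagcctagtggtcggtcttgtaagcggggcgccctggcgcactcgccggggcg
Stat5b, score 1272, chr11:100822571-100822691: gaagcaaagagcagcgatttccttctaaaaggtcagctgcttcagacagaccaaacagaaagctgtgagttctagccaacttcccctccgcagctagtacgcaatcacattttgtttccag
The Stat2 start site summit is not printed, since RefSeq places it within an untranslated part of an exon of the neighboring apolipoprotein gene Apof, and Stat4 had no such summit.

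The second set holds the summits of the STAT loci with a STAT-type palindrome within 100 bp. These were 7 of 85 summits (8.24%), while 12.6% of all summits had such letters. Of the 7, 4 were nearest to a member's start site, and the others were nearest to Lrp1, Mip and Timeless. The palindrome, in capitals, was searched with a spacer of 3 bases (TTCNNNGAA) and with a spacer of 4 bases (TTCNNNNGAA), the form preferred by STAT6. Each match is shown with 30 bases on either side.
Stat6 locus, Lrp1 intron, spacer of 3, score 1394, chr10:127604706-127604774: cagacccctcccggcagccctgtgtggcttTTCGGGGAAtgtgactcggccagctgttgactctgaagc
Stat6 locus, upstream, spacer of 3, score 505, chr10:127636845-127636913: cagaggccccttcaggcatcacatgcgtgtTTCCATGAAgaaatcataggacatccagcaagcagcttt
Stat2 locus, near Mip, spacer of 4, score 823, chr10:128227802-128227871: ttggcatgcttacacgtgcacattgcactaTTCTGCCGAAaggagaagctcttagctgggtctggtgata
Stat2 locus, Timeless start, spacer of 4, score 563, chr10:128231873-128231942: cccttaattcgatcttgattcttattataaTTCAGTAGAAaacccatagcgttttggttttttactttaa
Stat5b intron 1, spacer of 3, score 393, chr11:100846677-100846745: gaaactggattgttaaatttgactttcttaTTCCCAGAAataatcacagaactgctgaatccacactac
Stat4 gene, spacer of 4, score 430, chr1:52004333-52004402: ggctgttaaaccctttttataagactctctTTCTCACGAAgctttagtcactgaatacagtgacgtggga
Stat4 intron 3, spacer of 4, score 654, chr1:52022381-52022450: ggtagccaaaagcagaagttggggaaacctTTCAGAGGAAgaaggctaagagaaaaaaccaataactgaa

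The third set shows matches of other macrophage and stimulus-related factors inside member genes: an NF-kB match beside the Stat6 start site, IRF matches (GAAANNGAAA, read on the minus strand) in introns of Stat6 and Stat3, and the PU.1/ETS match (GAGGAAGT, read on the minus strand) at the best scored summit of Stat4.
Stat6 intron 1, NF-kB, score 748, chr10:127643678-127643747: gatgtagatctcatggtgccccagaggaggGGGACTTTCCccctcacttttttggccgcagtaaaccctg
Stat6 intron 4, IRF, score 1188, chr10:127650318-127650387: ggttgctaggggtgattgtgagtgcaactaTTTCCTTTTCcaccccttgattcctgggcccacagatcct
Stat3 intron 1, IRF, score 524, chr11:100931746-100931821: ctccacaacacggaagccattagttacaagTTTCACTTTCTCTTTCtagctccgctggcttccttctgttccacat
Stat4 intron 2, PU.1/ETS, score 1013, chr1:52012879-52012946: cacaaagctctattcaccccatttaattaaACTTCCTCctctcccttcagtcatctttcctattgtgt
A match is a run of letters and not a measured binding site.

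Whether the members had open start sites was examined first. A reference peak lay within 1000 bp of an annotated start site for 5 of the 6 members (Stat2, Stat3, Stat5a, Stat5b and Stat6), while 56.5% of all protein-coding genes (12402 of 21938) had one. Stat4 was the member without. Among genes with a start site peak, the median best score was 1456 (interquartile range 1071 to 1799). Stat3 scored 2153, above 95.1% of these genes, and Stat2 scored 1890, above 80.9%. Stat5a (1657, above 63.9%) and Stat6 (1556, above 56.7%) lay in the middle of the distribution. Stat5b scored 1272, above 37.6%, at an internal coding start, and 1082 at its most upstream start. The order was thus Stat3, Stat2, Stat5a, Stat6 and Stat5b, and whether neighbors in this order differ cannot be said without replicates.

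**Figure D1:**
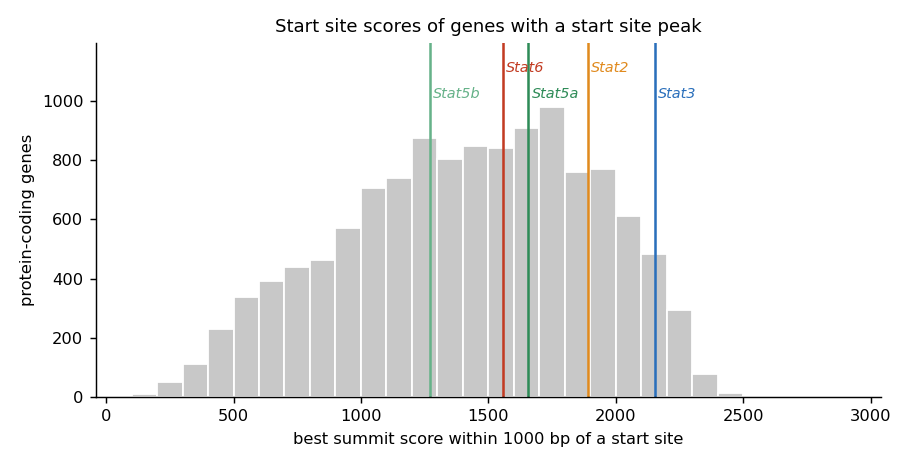
Best summit score within 1000 bp of a start site (x axis, authors' score without unit) for the 12402 protein-coding genes with a start site peak (grey bars, number of genes per 100 score units). Coloured lines mark 5 members, from Stat5b at 1272 to Stat3 at 2153, and Stat4 is missing because it had no start site peak.

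The members also differed in how many accessible sites surrounded them. Within 50 kb of the most upstream start site, Stat6 had 15 extended regions, more than 98.0% of protein-coding genes. Stat2, Stat3, Stat5a and Stat5b had 9 each, more than 79.1% of genes, and Stat4 had 6, more than 58.3%. The median of all genes was 4 (interquartile range 1 to 8), and that of genes with a start site peak was 7. Counted as summits, Stat6 had 38 (more than 99.7% of genes), Stat2 had 16, Stat5a and Stat5b had 13 each, Stat3 had 10 and Stat4 had 7. With a 20 kb window the members' median fell from 9 to 4 regions and with 100 kb it rose to 18, while the median of all genes was 2 and 9. Stat6 and Stat2 shared the highest count, 23, at 100 kb.

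**Figure D2:**
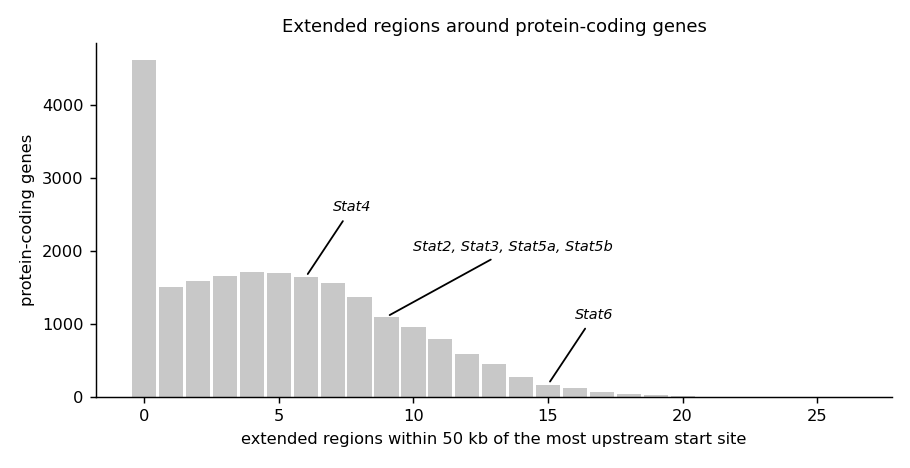
Number of protein-coding genes (y axis) by the number of extended regions within 50 kb of the most upstream start site (x axis). Stat4 stands at 6 regions, Stat2, Stat3, Stat5a and Stat5b at 9, and Stat6 at 15.

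These windows contained other genes. Of the 85 summits, 40 had a member's start site as the nearest start of a protein-coding gene (47.1%, 95% Wilson interval 36.8 to 57.6, which covers counting error only), and 45 lay nearer to another gene. The median score was 742.5 for the former and 867 for the latter. The nearest gene is a label for position and was not measured as a target. In all, 38 summits (44.7%) lay within 1000 bp of any annotated start site. Of all summits, 24774 (29.3%) did, but the windows of the members are centred on start sites by choice. Another 34 member summits (40.0%) lay in introns of protein-coding genes, 11 (12.9%) outside such genes, and 1 each in an untranslated exon and in an exon of a noncoding transcript. The lowest score among the 85 summits was 189 and the highest 2153. The median was 780 (quartiles 534 and 1284), and 49 summits reached the median of all 84660 summits, 737 (quartiles 486 and 1153). The member reference peaks had a median width of 229.5 bp, close to the 227 bp of all peaks. The 76 bases (1 read length) centred on each summit occurred only once in the genome for 84 of the 85 summits. The exception, beside Timeless in the Stat2 locus, occurred 15 times and was 82.1% repeat sequence, so its score of 1176 can include reads from other copies.

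**Figure D3:**
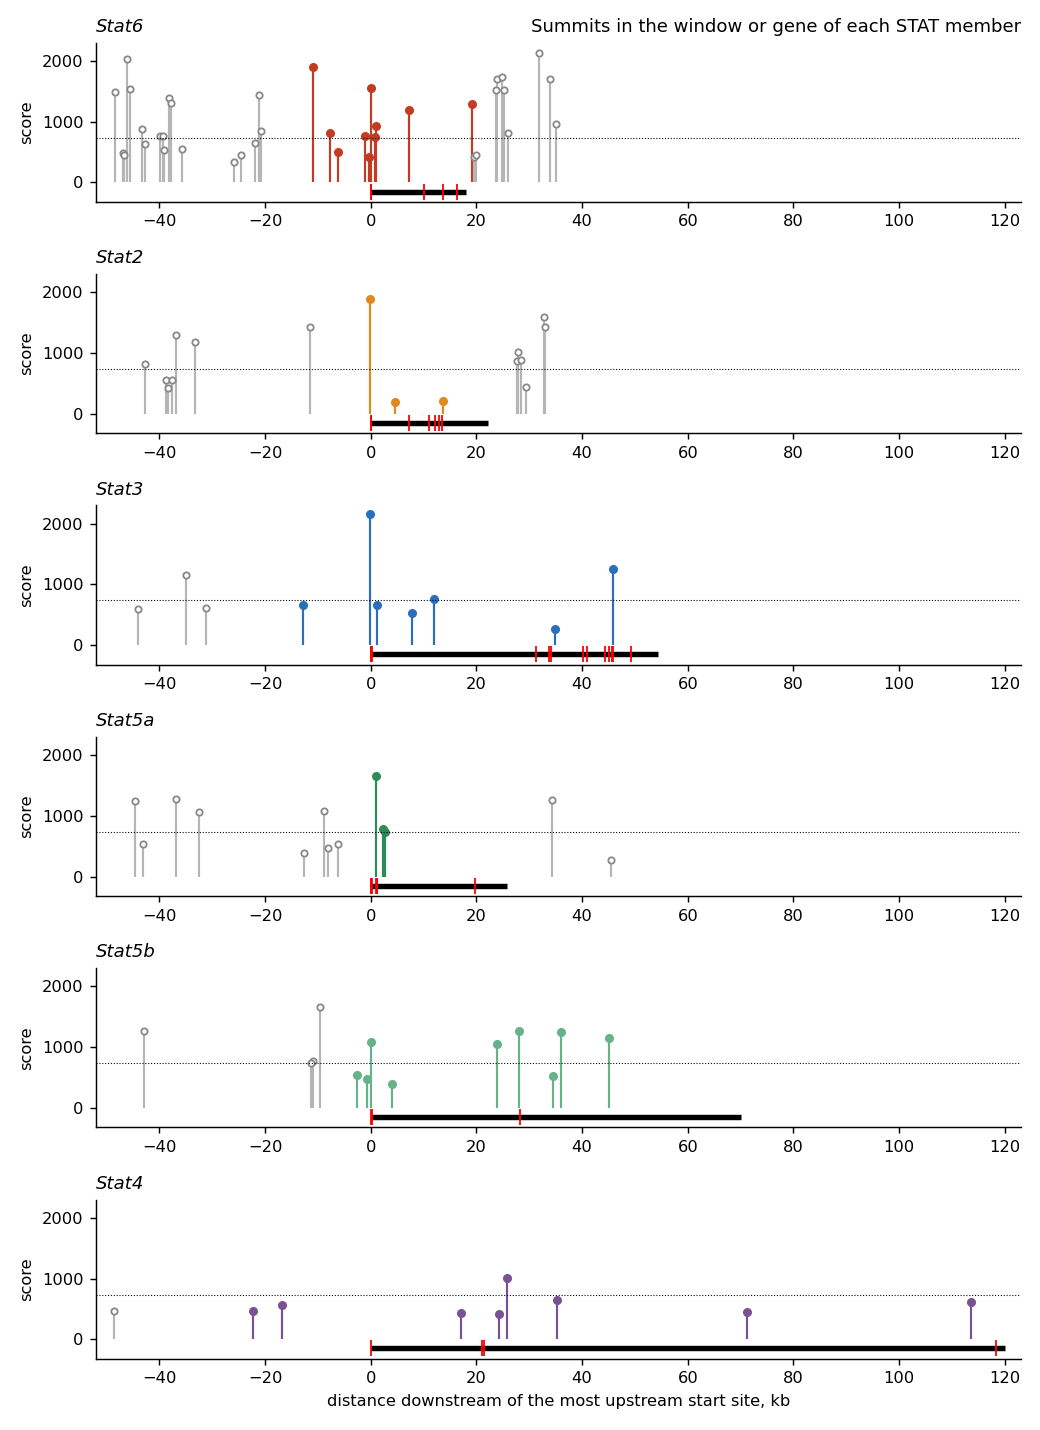
Summit scores (y axis, authors' score) against distance downstream of the most upstream start site in kb (x axis, transcription left to right) for the 6 members. Filled points are summits nearest to that member's start site, open points are nearer to another gene, black bars are gene bodies, red ticks are annotated start sites, and the dotted line is the median of all summits, 737. Stat6 lies among 38 summits, while Stat4 has 9 summits and none within 1000 bp of its own start sites.

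Stat6 (chr10:127642986-127660957, plus strand), the factor activated by IL-4, had the most crowded surroundings. Its 38 summits scored from 332 to 2127 (median 861.5), and 26 of them reached the median of all summits. Only 10 were nearest to Stat6 itself. The others were nearest to Lrp1 (18 summits), a large endocytic receptor, to Nab2 (5), a corepressor of EGR factors, and to Nemp1 (5), a nuclear envelope protein. The highest score in the locus, 2127, belonged to a summit 31934 bp downstream of the Stat6 start and nearest to Nemp1. The widest peak of the locus, 956 bp with 2 summits scoring 1734 and 1518, lay beside start sites of both genes. The 1734 summit was 656 bp from a Nemp1 start and the 1518 summit was 267 bp from a Nab2 start.

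The 10 summits nearest to Stat6 scored from 411 to 1903, and 8 of them reached the median of all summits. The start site summit, 16 bp from the most upstream start, scored 1556 and is the first sequence printed above. It was not the strongest of the 10. That was a summit in noncoding DNA 10898 bp upstream, which scored 1903, above 96.8% of all summits. Between it and the start site lay summits scoring 812, 505, 759 and 411. Inside the gene, intron 1 carried summits of 748 and 923, and intron 4 carried 1 of 1188. Intron numbers follow the coding transcript with the most coding bases. A further summit of 1284 lay just past the gene's end. The 748 summit, 764 bp downstream of the start, held the NF-kB match printed above at chr10:127643708-127643717, and the intron 4 summit held the IRF match 88 bp away. The 505 summit, 6191 bp upstream, held the STAT palindrome with a spacer of 3 bases, 80 bp from the summit. The 4-base spacer preferred by STAT6 was found within 100 bp of none of the summits of this locus (0 of 38). It was found at 6.81% of all summits, and the Stat3, Stat5a and Stat5b loci had none either, so the count does not set Stat6 apart.

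Stat2 (chr10:128270559-128292849, plus strand), the partner of IRF9 in the interferon response, lay 627573 bp from Stat6 on the same chromosome and looked different. Its locus had 16 summits with scores from 189 to 1890 (median 872.5), 10 of which reached the median of all summits. Just 3 summits were nearest to Stat2: the start site summit at 1890, 139 bp upstream of the most upstream start, and summits in intron 1 (189) and intron 19 (211). The gene thus had 1 strong start site and a body with no strong summit. The score of 189 was the lowest of the family, and only 1.10% of all summits scored lower. A score of 211 exceeded 1.71% of all summits. In the sequence window of the start site summit, the RUNX letters TGTGGT were found and none of the other searched motifs.

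The other 13 summits of the Stat2 locus belonged by position to its neighbors. Timeless, a replication fork protein, had 5, with scores from 421 to 1296. Il23a, which encodes the p19 subunit of IL-23, a cytokine that myeloid cells secrete after microbial stimuli, had 4 (448 to 1013), and Pan2, a deadenylase subunit, had 2 (1594 and 1431) in a peak of 736 bp, the widest of the locus. Mip had 1 (823). The summit nearest to Apon, 11455 bp upstream of Stat2, scored 1431 and was the best of the locus away from start sites. The 2 STAT palindromes of the locus, both with a spacer of 4 bases, lay near Mip (16 bp from a summit of 823) and at the Timeless start (3 bp from a summit of 563), and none was within 100 bp of the 3 summits nearest to Stat2.

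Stat3, Stat5a and Stat5b share a stretch of chromosome 11 and cannot be described independently. The most upstream starts of Stat5a and Stat5b, which point away from each other, were 8627 bp apart, and the 3′ ends of Stat5a and Stat3 overlapped by 72 bp. Their loci together spanned 208810 bp and held 22 summits in 17 extended regions. Of these summits, 13 fell in the locus of more than 1 member and 1 in all 3. The loci of Stat5a and Stat5b had 12 of their 13 summits each in common, so that their equal counts of regions and summits largely describe the same DNA.

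**Figure D4:**
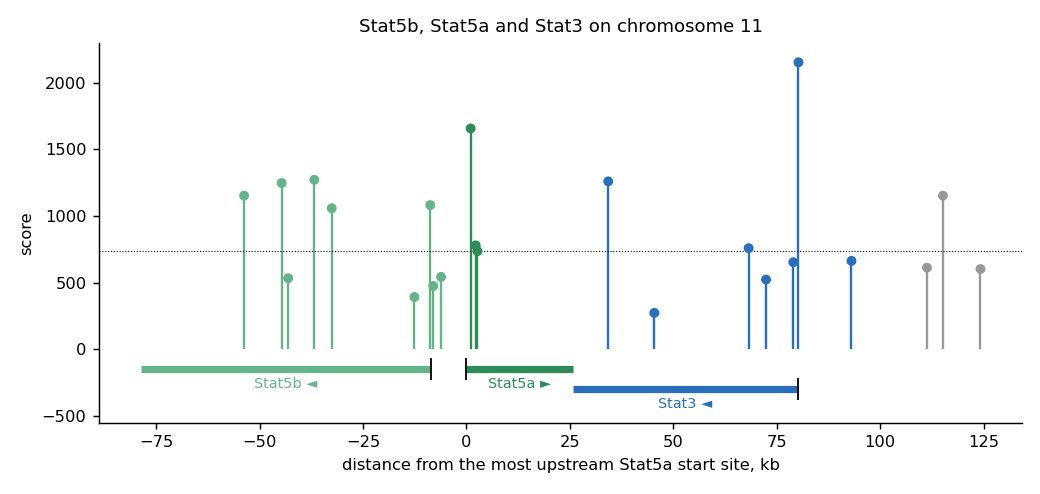
Summit scores (y axis, authors' score) across the Stat5b, Stat5a and Stat3 loci by distance from the most upstream Stat5a start in kb (x axis). Colours give the member whose start is nearest (grey, the neighboring gene Cavin1), bars are gene bodies with an arrowhead for their direction, black ticks are the most upstream starts, and the dotted line is the median of all summits. The highest points are the Stat3 start at 2153 and the Stat5a start at 1657, and 4 summits above 1000 lie inside Stat5b away from its upstream start.

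Stat3 (chr11:100885098-100939540, minus strand), which transmits IL-6 and IL-10 signals, had the strongest start site of the family. The summit at 2153 lay 48 bp upstream of the most upstream start, exceeded 99.3% of all summits and sat in the widest peak of its locus (652 bp). The rest of the gene was weaker. Intron 1 held summits of 654, 524 and 759 at 1199, 7788 and 11983 bp from the start, and intron 8 held 1 of 274. A summit of 1260 in intron 20, 45922 bp downstream, stood out within the gene body. It lay 125 bp from the annotated start of a Stat3 transcript with a retained intron. Of the 10 summits in the locus, 7 were nearest to Stat3 and 3 to Cavin1, a coat protein of caveolae (613, 1153 and 603). The 524 summit in intron 1 carried overlapping IRF matches in a run of 16 bases, chr11:100931776-100931791, which began 24 bp from the summit. No STAT palindrome was found within 100 bp of any of the 10 summits (0 of 10).

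Stat5a (chr11:100859351-100885169, plus strand) had 3 summits of its own, all near its 5′ end. The strongest, 1657, was not at the most upstream start. It lay 1021 bp downstream of that start and 27 bp from another coding start at chr11:100860345. Its peak of 362 bp was the widest of both the Stat5a and the Stat5b locus. Summits of 780 and 737 followed in introns 2 and 3. All 3 reached the median of all summits, and none was found in the rest of the gene. The start site window had 20 CpG dinucleotides in 201 bases, more than 76.2% of the 24774 summits within 1000 bp of a start site in the whole list. AP-1 letters (TGACTCA) were found at the 737 summit and RUNX letters at the 780 summit.

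Stat5b (chr11:100780731-100850724, minus strand), the closest paralog of Stat5a, showed a different layout. It had 9 summits of its own, from 393 to 1272 (median 1059), of which 5 reached the median of all summits. The summit at the most upstream starts scored 1082 and that at an internal coding start in intron 1, 28133 bp downstream, scored 1272. The upstream summit lay in exon 1 in very GC-rich DNA (82.6% GC, 35 CpG dinucleotides, more than 99.2% of all start site summits). The internal start had 51.2% GC and 5 CpG dinucleotides, more than 28.3% of start site summits, against a median of 11 for start site summits and 2 for the 59886 other summits. Stat5b therefore had start sites of unlike base composition, both with a peak. Further into the gene, summits of 1248 in intron 1 and 1153 in intron 2 also scored higher than that at the upstream start, and another in intron 1 scored 1059. The 1153 and 534 summits held PU.1/ETS letters, the former also C/EBP letters (TTGCNNAA). The STAT palindrome with a spacer of 3 bases, 56 bp from a summit of 393 in intron 1, was the sole one of the 22 summits in the stretch, and AP-1 letters lay in the same window.

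Stat4 (chr1:51987148-52107189, plus strand), best known from T and NK cells, was the longest member and had no peak at any of its 4 annotated start sites. The peak nearest to its most upstream start was 16636 bp away, and summits came no closer than 3204, 2821 and 4771 bp to the other 3 starts. Stat4 nevertheless had 9 summits in its locus and 6 in the gene. Their scores ran from 421 to 1013 with a median of 467 over the locus, the lowest of the 6 loci, and 1 of the 9 reached the median of all summits. That summit, 1013 in intron 2 and 25772 bp from the start, held PU.1/ETS letters 4 bp away and RUNX letters. The remaining summits in the gene scored 430, 421, 654, 448 and 613. The 430 and 654 summits held STAT palindromes with a spacer of 4 bases, 61 and 52 bp away, and the peak of the latter was the widest of the locus (283 bp). No other protein-coding gene started in the locus.

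The window edge mattered for some members. The outermost summit inside 50 kb was 48538 bp from the Stat4 start and scored 467, while the next one outside, at 52419 bp, scored 1721, above every summit in the Stat4 locus. For Stat6 the last summit inside (1480, at 48296 bp) and the first outside (802, at 50344 bp) were close to the limit on both sides.

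Whether the STAT loci differed from the catalog in motif content was described by shares of summits with the letters within 100 bp on either strand. A STAT palindrome of either spacer was found at 7 of 85 summits (8.24%, 95% Wilson interval 4.05 to 16.0), compared with 12.6% of all summits. The 3-base spacer was found at 3 (3.53%, interval 1.21 to 9.87), against 6.35% of all summits, and the 4-base spacer at 4 (4.71%, interval 1.85 to 11.5), against 6.81%. The share of all summits lay within the interval of the STAT loci in each case, so a lower or higher frequency was not detectable with 85 summits. Within 50 bp, 3 of 85 summits (3.53%) had a STAT palindrome and 6.80% of all summits did. The 2 forms cannot start at the same TTC, and no summit of the STAT loci held both.

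The letters of macrophage lineage factors gave a similar picture. PU.1/ETS letters were found at 10 summits (11.8%, interval 6.52 to 20.3; all summits 9.08%), RUNX letters at 13 (15.3%, interval 9.16 to 24.4; all summits 19.4%) and C/EBP letters at 6 (7.06%, interval 3.28 to 14.6; all summits 11.4%). Of the stimulus-related factors, AP-1 letters were found at 7 summits (8.24%, interval 4.05 to 16.0), where all summits had 15.9%, just below the upper bound. Within 1000 bp of a start site, 3 of 38 member summits had AP-1 letters, beside 7.65% of all such summits. Farther away, 4 of 47 had them, beside 19.4%. IRF letters were found at 2 summits (2.35%, interval 0.648 to 8.18; all summits 3.64%) and NF-kB letters at 6 (7.06%, interval 3.28 to 14.6; all summits 5.55%). By locus, 5 of the 6 summits with NF-kB letters were in that of Stat6, which held 38 of the 85 summits. Among these 5, only the summit scoring 748 was nearest to Stat6, and the others were nearest to Lrp1. Of the 13 summits with RUNX letters, 4 were in the Stat6 locus and 4 in that of Stat4, which held 9 summits. These counts are too small to order the loci. RUNX letters were found at each member's locus.

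**Figure D5:**
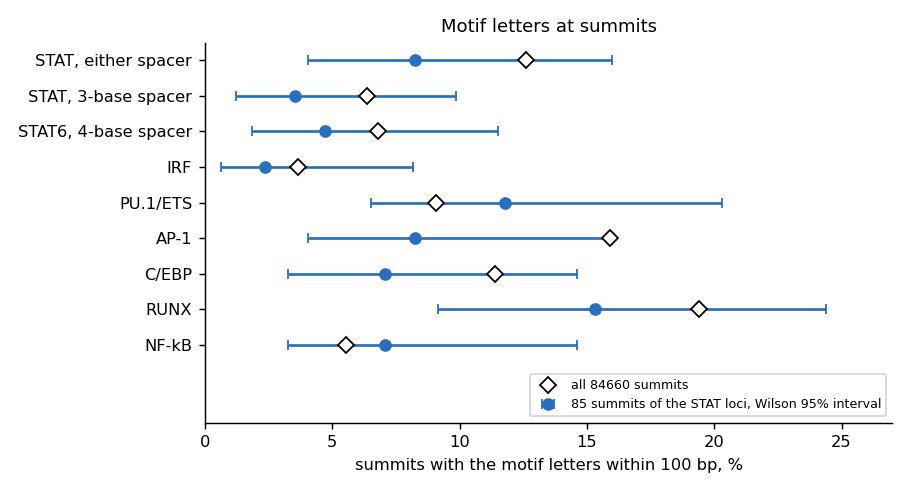
Share of summits with the letters of a motif within 100 bp, in percent (x axis), for the 85 summits of the STAT loci (blue, with 95% Wilson interval) and all 84660 summits (open diamonds). Every diamond lies within the interval beside it, and that of AP-1 lies at its upper end.

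The partners of the STAT proteins were compared on the same scales. All 4 JAK kinases, which phosphorylate STATs, had a start site peak, from Jak3 at 856 to Tyk2 at 2140 (median best score 1818). Of the 15 receptor genes 14 had one (median 1664), with Ifngr1 at 2127, Il4ra at 1683 and Il12rb1 at 544, and the exception was Il13ra1, which pairs with IL-4Rα. Irf9, the STAT2 partner, scored 1825. All 10 inhibitors had one (median 1677), including Socs1 (1955) and Socs3 (1890), the feedback inhibitors of cytokine signaling. Of 8 ligand genes 6 had a start site peak, at lower scores (median 609.5). Il6 scored 1212, Il12a 737, Ifnb1 685, Il12b 534, Il10 332 and Csf2 307, and Il4 and Ifng had none. Together 35 of the 38 pathway genes had a start site peak, against 56.5% of all genes. Start site peaks were thus found for the IL-4 receptor chain Il4ra, Jak1 (1890) and Stat6, and for the IL-12 receptor genes Il12rb1 and Il12rb2 (1594), whereas Stat4 lacked one.

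The cells' identity was checked with marker genes: all 8 macrophage markers, among them Csf1r, Adgre1 and Spi1, had a start site peak (scores 1176 to 2021), but 6 of 23 markers of other cell types did (Ms4a1, Pax5, Klrb1c, S100a8, Col1a1 and Pdgfra; scores 402 to 1094). Of all protein-coding genes, 56.5% had a start site peak. The T cell markers Cd3e, Cd3g, Cd4 and Cd8a had none (0 of 4). Of the NK cell markers, Klrb1c had one (1094) and Ncr1 and Prf1 had none (1 of 3). The part of other cells in any summit was not tested.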

How the data were processed

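ATAC-seq libraries (18, in 9 groups of 2) were made from BMDMs. According to the study's methods and the submitters' processing notes, the authors removed adapters with BBDuk, trimmed with Trimmomatic 0.39, aligned to mm10 with ShortStack, filtered with SAMtools 1.9 and called peaks with MACS2 2.2.6. Only peaks below a stringent q-value that overlapped between replicates entered the reference lists, so weaker or less reproducible peaks are missing from them. Duplicates were kept, local background was not used and a shift to the Tn5 cut site is not named, so heights can include PCR copies and summits can lie beside the cut site. The deposited lists are pooled, with 0 columns per library and 0 columns of other samples. The summit score, as deposited by the authors, has no stated scale. Depth, and thus the precision per library, is unknown. The comparison of stimuli and times was not made, since the lists are pooled.

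Positions (mm10, counted from 1) were joined to GENCODE M21 genes and to GRCm38.p6 sequence with Python 3.11.15, pandas 2.3.3 and pysam 0.24.0. A start site peak overlapped 1000 bp around any start site. The searched motifs (8) were matched on both strands. The code was tested on simulated data. Intervals are Wilson intervals at 95%. The members, lists and motifs were chosen with earlier results of these data known, so no test was made. The text names all members, the best start site and distal summit and the widest peak per member, all summits with a STAT palindrome, and the genes of the pathway lists that lacked a start site peak. Lists of other gene families are not reported here. Other genes of the pathway and marker lists, other summits, the neighboring genes and the IRF, NF-kB and PU.1/ETS sequences were chosen after their values were seen. Alternatives comprised other windows, overlaps, score limits, start site definitions and subsets of summits.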

Additional observations from a re-analysis of the deposited data

How the results depend on the processing

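The number of members with a start site peak (5 of 6, Stat4 lacking one) was the same with windows of 500 bp (54.9% of all genes) and 2500 bp (59.9%), with the most upstream start site only (52.1%) and with peaks at or above the median score (50.7%). The median best start site score stayed at 1657 with 500 bp, 2500 bp and the nearest summit. The median number of extended regions of the members moved from 9.0 to 4.0 with a 20 kb window and to 18.0 with 100 kb, as the wider window holds more DNA. It was 6.5 with regions at or above the median score (1 for Stat4, 13 for Stat6), where the median of all genes was 2. The share of summits with a STAT palindrome moved from 8.24% (all summits 12.6%) to 3.53% within 50 bp (all summits 6.80%). It was 15.3% within 200 bp (all summits 22.2%), 4.08% at or above the median score (12.2%), 10.4% for the best summit of each region (12.9%), 10.6% away from start sites (14.2%) and 10.0% for summits nearest to a member (12.6%), an alternative chosen after seeing the data. The members' share was below that of all summits at each of these settings, and its 95% Wilson interval covered that share at each. The share nearest to a member's start, 47.1%, was 41.2% over all annotated genes and 42.4% with 1 start per gene. No paired analysis was possible because the lists carry no column per library, and leaving out single libraries was not run for the same reason. The unknown depth and the authors' filter, which kept stringent peaks shared by replicates, limit what a missing summit, such as at the Stat4 starts, can say.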
